A study of Drosophila melanogaster with 34 samples.

Results

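The Enhancer of split complex of Drosophila melanogaster was followed as an 80 kb window of chromosome arm 3R, from 21810000 to 21890000 on release 5 of the genome. Its members were all bound regions, called peaks here, that overlapped this window in any of the 18 deposited lists. There were 41 such peaks, of 11405 on arm 3R and 48602 in all. Each list came from chromatin immunoprecipitation followed by sequencing (ChIP-seq), in which the DNA fixed to a protein is recovered with an antibody and read.

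Of the 34 samples, 16 were inputs, chromatin sequenced without immunoprecipitation. The 5 deacetylases HDAC1, HDAC3, HDAC4a, HDAC6, HDAC11 were mapped in whole embryos of 0 to 12 h from y; bw cn sp flies, with 2 lists each and 1 input library for all 10. CTCF was mapped in S2 cells, a cultured line of embryonic origin, in lists labelled 200 and 500. Caudal was mapped with an antibody to Caudal itself in embryos of 0 to 4 h from y; bw cn sp flies, by the antibody and strain its labels give. Its title bears a code that the titles of the later Caudal samples pair with cad-GFP, so the labels of this sample leave the antibody in some doubt. In embryos of 4 to 8 h, larvae of the third instar (L3) and females aged 21 days, all y w, VK33, it was mapped as cad-GFP with an antibody to GFP. EcR was mapped in the same way as EcR-GFP in y w, VK33 animals labelled WPP, short for white prepupae. The labels join this stage name to 10 to 11 h and 30 to 33 h, so the stage at each time is known only by its label. Inputs of the GFP samples came from y; bw cn sp flies, a different strain, and the labels do not give the promoter that drives either tagged protein. Whole animals mix many cell types, so a peak does not tell in which cells a protein was bound.

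The complex is the best known target of Notch signalling. When Notch is activated at the cell surface, its intracellular part enters the nucleus, joins the DNA-binding protein Su(H) and switches on the E(spl) genes, which then keep the cell from a neural or other Notch-sensitive fate. Most of these genes encode basic helix-loop-helix (bHLH) repressors, which silence their targets with Groucho, a corepressor encoded by gro at the end of the complex and known to work with HDAC1. Deacetylases take acetyl groups off histones, which goes with silent chromatin, and off other proteins. CTCF is an insulator protein, Caudal a homeodomain factor that patterns the posterior embryo, and EcR the receptor for the moulting hormone ecdysone.

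All 9 genes given as members were found by symbol in a RefSeq gene table of release 6, where they run along 3R in the order E(spl)mdelta-HLH, E(spl)mgamma-HLH, E(spl)mbeta-HLH, E(spl)malpha-BFM, E(spl)m3-HLH, E(spl)m5-HLH, E(spl)m7-HLH, E(spl)m8-HLH and gro. The 7 genes ending in HLH encode the bHLH repressors. Of these, E(spl)mdelta-HLH is known for its activity in the R4 photoreceptor of the eye, E(spl)mgamma-HLH for its activity in neural stem cells, E(spl)mbeta-HLH for its activity around the wing veins, and E(spl)m8-HLH as the gene of the dominant mutation that gave the complex its name. E(spl)malpha-BFM belongs to the Bearded family, whose proteins hold back Neuralized, the ligase that activates the Notch ligand Delta. From E(spl)mdelta-HLH to gro the table listed 19 genes, among them 4 further protein-coding ones, namely Kaz-m1, E(spl)m2-BFM, E(spl)m4-BFM and E(spl)m6-BFM. E(spl)mdelta-HLH is preceded by CG43116 and gro is followed by Exo84. The peaks are on release 5, so no peak was assigned to a gene, and that the window holds the complex rests on how it was defined.

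Peaks filled more of the window than of the tiles beside it. Of its bases, 74.4% lay in a peak of at least 1 list, against 9.12% in the 80 kb before it, 21.8% in the 80 kb after it and a median of 41.1% over the 348 tiles of this length (the window included) that make up 3R. The share of tiles filled at least as much was 8.33%. Peaks of 14 of the 18 lists reached the window, with a median of 13 lists per tile and 45.4% of tiles at 14 or more, so the number of lists was near that of the arm. The deacetylases contributed 28 peaks, Caudal 10, CTCF 2 and EcR 1. HDAC6 list 1, HDAC11 list 2, Caudal L3 and EcR at 30 to 33 h had none, which was also the case in 23.9%, 37.9%, 63.8% and 80.7% of the tiles of 3R in these lists.

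**Figure D1:**
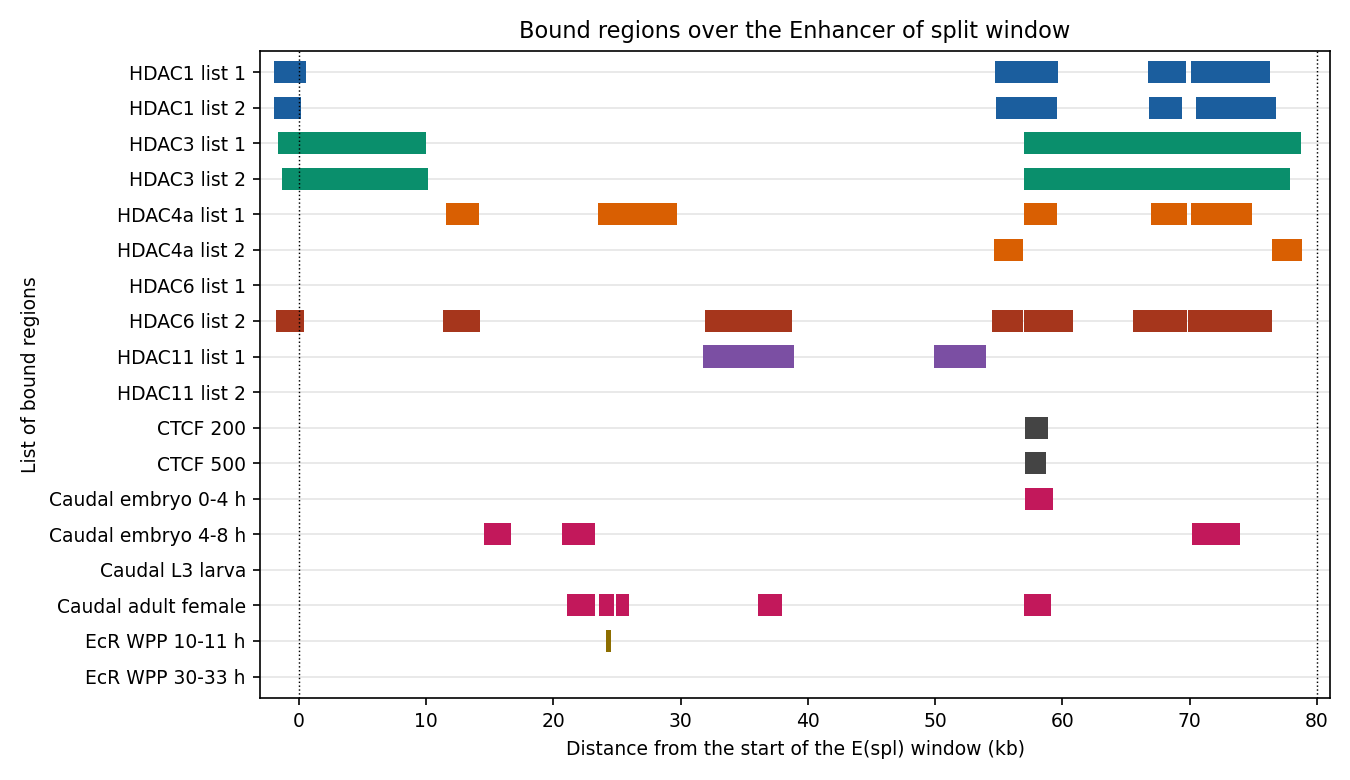
Bound regions over the Enhancer of split window. The horizontal axis gives the distance from the start of the window in kb, each row is 1 of the 18 lists, bars are peaks drawn to scale and dotted lines mark the edges of the window. The deacetylase peaks crowd towards the right, both HDAC3 lists leave the middle empty, and 10 lists meet at a single site.

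Before the single lists are described, the labels of some need a caution. Overlap between lists was measured as the Jaccard index, the base pairs covered by both divided by those covered by either. Over all arms HDAC4a list 2 was closest to HDAC6 list 1 (Jaccard index 0.53), HDAC6 list 2 to HDAC1 list 1 (0.53) and HDAC4a list 1 to HDAC6 list 2 (0.17), while the 2 lists of HDAC4a had 0.11 and those of HDAC6 0.24. The 2 lists of HDAC11 had 0.071 with each other, and each was closer to an HDAC4a list. HDAC1 list 1 was likewise closer to HDAC6 list 2 (0.53) than to its own partner (0.48). The deacetylase lists are therefore named by their labels throughout, and counts are also given without the HDAC4a and HDAC6 lists. HDAC1 list 1 and the HDAC11 lists call for the same caution but were left out only 1 at a time. The Caudal L3 list is named by its sample labels too, although the header of its file carries a track name with EcRGFP. Over all arms its Jaccard index was 0.027 and 0.025 with the EcR lists, which are of the same scored kind, and 0.0018 to 0.0033 with the other Caudal lists. All 10 deacetylase lists have the same input library, so they are not independent of each other. Lists without peak heights cannot show how strongly a place was bound, and the read depth behind each is unknown.

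Occupancy was set against the arm by the share of bases inside peaks and the number of peaks, each divided by its mean on 3R. By covered share 8 of 18 lists were at 2 times the arm or more, and 6 of the 14 that remain without the HDAC4a and HDAC6 lists. Without the Caudal L3 list it was also 8. It was 5 of 18 with the window 20 kb wider or 10 kb narrower on each side, where HDAC1 list 1 and both HDAC3 lists were below 2 times. By number of peaks it was also 5 of 18, of which HDAC6 list 2 (1.87 times) and adult Caudal (1.74 times) were below 2 times with the wider window. The median over the 18 lists was 1.23 times the arm by covered share and 0.90 times by number. Depending on the list, 11.5% to 24.7% of the tiles of 3R reached 2 times by covered share and 7.76% to 36.2% by number. Each list is a single observation that pools 1 to 3 libraries, so no list was tested against the arm.

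HDAC1, known in flies as Rpd3 and a partner of Groucho, gave the same 4 peaks in both lists. They covered 18.4% of the window in list 1 and 17.2% in list 2, against 9.09% and 12.1% of 3R, which is 2.03 and 1.42 times the arm. Tiles of 3R at 2 times the arm or more made up 15.8% and 13.2% in these lists. By number the 4 peaks were 1.85 and 1.42 times the mean, where 11.8% and 12.4% of tiles reached 2 times. The first HDAC1 peak crossed the left edge of the window, at 21808080 to 21810581 in list 1 and 21808085 to 21810181 in list 2. The second lay at 21864685 to 21869630 and 21864769 to 21869573, so that its ends differed by 84 and 57 bp between the lists. The next lay at 21876736 to 21879725 and 21876822 to 21879361, and the last at 21880072 to 21886286 and 21880498 to 21886748. No end of the 4 peaks differed by more than 462 bp between the lists. The last peak was the widest of the 4 in both lists, at 6215 and 6251 bp, and only 7.24% and 8.33% of the peaks in these lists were wider. Between the first and the second peak 54103 bp in list 1 and 54587 bp in list 2 held no HDAC1 peak. Gaps at least as long made up 20.2% and 12.5% of those between HDAC1 peaks on 3R.

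HDAC3, the enzyme of the N-CoR/SMRT type of corepressor complex, had the highest covered share of all lists, from 2 broad peaks. It covered 39.8% of the window in list 1 and 38.8% in list 2, which is 2.53 and 2.34 times the arm, where 20.7% and 19% of tiles reached 2 times. By number the 2 peaks were 1.10 and 1.15 times the mean, where 16.7% and 12.1% of tiles reached 2 times. A single broad peak at 21866990 to 21888774 in list 1 and 21866991 to 21887883 in list 2 made up most of this. Its left ends were 1 bp apart and its right ends 891 bp. At 21785 bp it was number 53 by width of 2605 peaks in list 1, and at 20893 bp number 84 of 2552 in list 2. The other peak, at 21808344 to 21820019 and 21808702 to 21820125, entered the window from the left. No HDAC3 peak lay in the 46970 bp (list 1) or 46865 bp (list 2) between them. Such a gap was not rare, since 25.7% of the gaps between HDAC3 peaks on 3R were at least as long in each list. With the window 10 kb shorter on each side the covered share was 1.38 and 1.32 times the arm.

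HDAC4, labelled HDAC4a here, is a class IIa deacetylase that moves between cytoplasm and nucleus. HDAC4a list 1 had 5 peaks that covered 23.7% of the window, 4.47 times the arm, where 15.5% of tiles reached 2 times and only 6 of 348 were covered as much. By number they were 2.77 times the mean, where 14.7% of tiles reached 2 times. The peaks lay at 21821542 to 21824160, 21833508 to 21839706, 21867003 to 21869562, 21876960 to 21879747 and 21880082 to 21884912. The widest of them, 21833508 to 21839706, was number 43 by width of 2704 peaks and overlapped no peak of another deacetylase. HDAC4a list 2 had 2 peaks, at 21864648 to 21866921 and 21886479 to 21888817, which shared no base with those of list 1. They covered 5.77% of the window, 0.62 times the arm, and by number were 0.68 times the mean, where 15.8% and 14.7% of tiles reached 2 times. In this list 190 of 348 tiles were covered at least as much as the window.

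HDAC6, best known for removing acetyl groups from tubulin in the cytoplasm, had peaks in the window in 1 of its 2 lists. HDAC6 list 2 had 7 peaks, the most of any list, that covered 34.0%, 2.93 times the arm, where 12.9% of tiles reached 2 times and 15 of 348 were covered as much. By number they were 2.78 times the mean, where 7.76% of tiles reached 2 times. Its widest 3 lay at 21841892 to 21848770, 21879879 to 21886470 and 21875563 to 21879772. HDAC6 list 1 had no peak in the window, in a list where 15.2% of tiles reached 2 times the arm by covered share and 14.1% by number. The Jaccard index of HDAC6 list 2 with HDAC1 list 1 was 0.52 in the window, close to its value over the arms.

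HDAC11, the single class IV deacetylase of the fly, had peaks in the window in 1 of its 2 lists. List 1, the shortest of the deacetylase lists with 982 peaks on the arms, had 2 peaks that covered 14.0%, 4.58 times the arm. In this list 19.8% of tiles reached 2 times, and 16 of 348 were covered as much. By number it was 3.59 times the mean, where 12.4% of tiles reached 2 times. The peak at 21841792 to 21848900 matched the HDAC6 list 2 peak at that place, with ends 100 and 130 bp apart. The peak at 21859874 to 21863994 was overlapped by no other list. HDAC11 list 2 had no peak between 21718878 and 21918363, in a list where 18.1% of tiles reached 2 times by covered share and 9.77% by number.

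**Figure D2:**
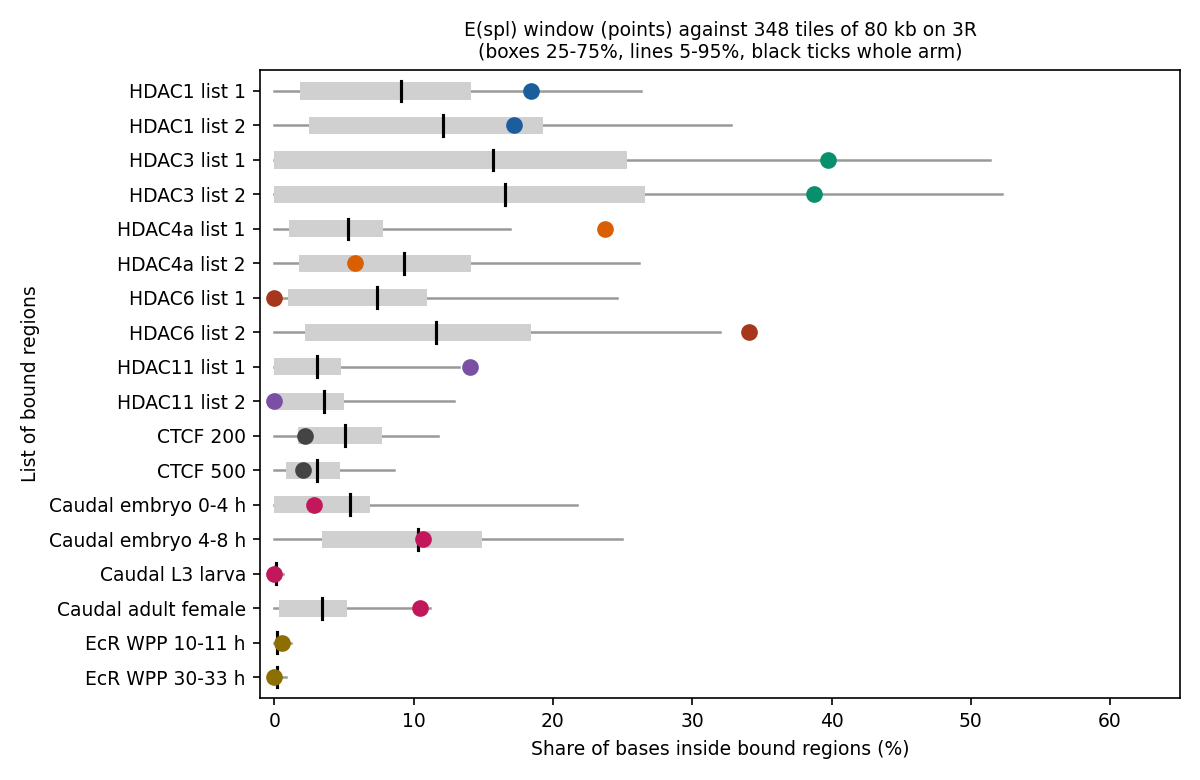
Share of bases inside peaks in the E(spl) window and along 3R. Coloured points give the window in each of the 18 lists as a percentage, black ticks the whole arm, grey boxes the range of the 348 tiles from their lower to their upper quartile and grey lines that from the 5th to the 95th percentile. HDAC4a list 1 (23.7%), HDAC6 list 2 (34.0%) and HDAC11 list 1 (14.0%) lie beyond the grey lines, while HDAC6 list 1 and HDAC11 list 2 lie at 0.

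Whether the 2 lists of a deacetylase matched in the window was tested by pairing the 10 lists in all 945 possible ways. The mean Jaccard index in the window was 0.37 for lists of the same deacetylase and 0.14 for lists of different ones, and 21 pairings gave a mean as high (one-sided exact permutation test, p = 0.022). The 2 lists of HDAC3 had an index of 0.97 and those of HDAC1 one of 0.88, against 0.84 and 0.48 over the arms. The lists of HDAC4a, both with peaks in the window, had 0 with each other. HDAC6 list 1 and HDAC11 list 2 had no peak there, so their index was 0 with every list under any pairing, and the test bears on neither protein. The mean for the same deacetylase thus came from the HDAC1 and HDAC3 pairs alone. The test does not speak for deacetylases in general and shows no match for HDAC4a. Without 1 HDAC1 list the exact permutation p was 0.11, and without HDAC3 list 1 or list 2 it was 0.162 or 0.159. Without the HDAC4a and HDAC6 lists it was 0.067, the smallest that the 15 pairings of 6 lists allow. With the share of overlapping peaks in place of base pairs the means were 0.40 and 0.37 (exact permutation p = 0.52). All 10 lists share an input, and its part in their overlap was not tested.

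**Figure D3:**
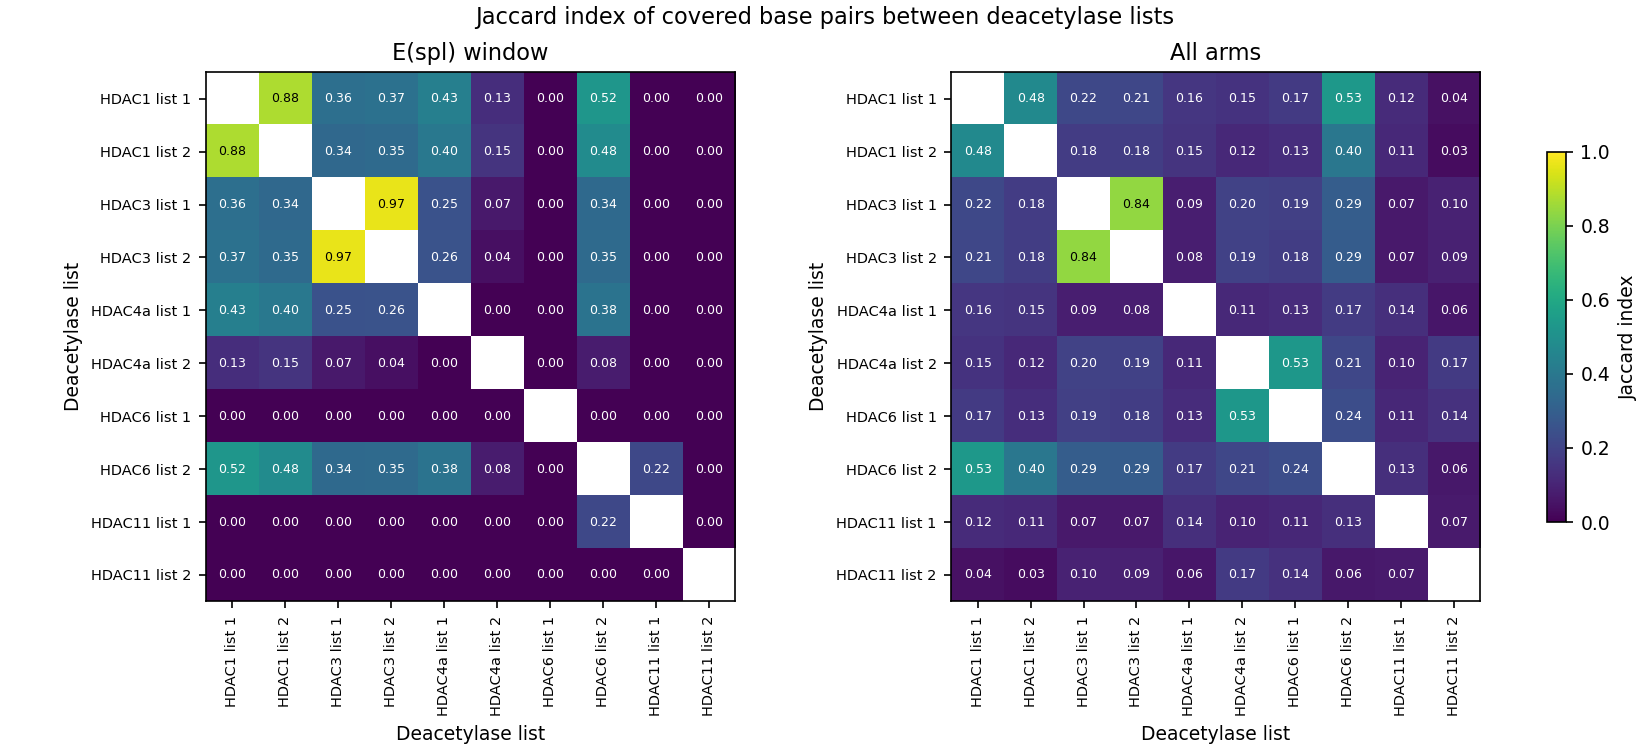
Overlap between the 10 deacetylase lists in the E(spl) window (left) and over all arms (right). Each cell is the Jaccard index of covered base pairs between the list of its row and the list of its column, on a colour scale from 0 to 1. In the window the HDAC3 pair stands at 0.97 and the HDAC1 pair at 0.88, and HDAC6 list 2 is closer to HDAC1 list 1 (0.52) than to its own partner (0.00).

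One site lay in peaks of more lists than any other place in the window. The 1626 bp from 21867095 to 21868720 lay in peaks of 10 lists, namely both HDAC1, both HDAC3 and both CTCF lists, HDAC4a list 1, HDAC6 list 2, Caudal at 0 to 4 h and Caudal in adult females. The deacetylase lists share 1 input, while the CTCF and Caudal lists had inputs of their own. The part of the inputs in this overlap was not tested. Without the HDAC4a and HDAC6 lists the site was held by 8, of HDAC1, HDAC3, CTCF and Caudal. The lists come from embryos, S2 cells and adult females, so they do not show these proteins bound there together. Of the peaks there, 8 began within 105 bp of each other, from 21866990 for HDAC3 list 1 to 21867095 for CTCF 200, and only the HDAC1 peaks reached further left. HDAC6 list 2 had a break of 133 bp just before it, from 21866886 to 21867018, and the first HDAC4a list 2 peak ended at 21866921. Tiles with a point in 10 or more lists made up 15.2% of 3R, which has 71 such sites and up to 14 lists at a base, so the site is among many of its kind on the arm. Bases in 10 or more lists made up 2.03% of the window and 0.348% of 3R.

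CTCF occupied the window at this site alone. The CTCF 200 peak lay at 21867095 to 21868860 and the CTCF 500 peak at 21867082 to 21868720, with ends 13 and 140 bp apart. They covered 2.21% and 2.05% of the window, 0.44 and 0.67 times the arm, where 11.5% and 18.4% of tiles reached 2 times. By number, 1 peak was 0.32 and 0.59 times the mean, where 8.05% and 12.6% of tiles reached 2 times. CTCF peaks thus covered less of the window than of 3R as a whole in both lists. This was common on the arm, where 238 and 185 of 348 tiles were covered at least as much as the window. The median tile had 4.27% in the CTCF 200 list and 2.28% in the CTCF 500 list, the latter close to the window. The 2 peaks were of more than usual width for their lists, with 17.4% and 26.1% of peaks wider. The nearest other CTCF 200 peak, at 21808404 to 21809453, ended 546 bp short of the left edge, and to the right the next began at 21955207. The left one was 57641 bp from the peak inside the window and the right one 86346 bp. In the CTCF 500 list the nearest peak to the left, at 21790946 to 21792176, ended 17823 bp from the window, and the next to the right began at 21962965.

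A second shared place lay to the right of the first, inside the broad HDAC3 peak. From 21880498 to 21883988 the peaks of 7 lists coincided, namely both HDAC1 and both HDAC3 lists, HDAC4a list 1, HDAC6 list 2 and Caudal at 4 to 8 h. Another place, 21876960 to 21879361, was held by the same 6 deacetylase lists without Caudal. HDAC1, HDAC4a list 1 and HDAC6 list 2 all showed separate peaks at these 2 places, whereas HDAC3 ran through both. Bases in 7 or more lists made up 7.20% of the window and 3.33% of 3R, and those in 6 or more 12.1% and 5.76%. The median tile of 3R had 7 lists at its most shared base, so places of this kind are common on the arm. The breaks between the separate peaks were short. They were 346 and 1136 bp in HDAC1 lists 1 and 2, 334 bp in HDAC4a list 1 and 106 bp in HDAC6 list 2. In these lists 89.1% to 97.2% of the gaps on 3R were at least as long. In the last 20 kb of the window HDAC3 covered 93.9% and 89.4% of the bases, HDAC1 46.0% and 44.0%, HDAC6 list 2 58.1% and HDAC4a list 1 38.1%. In the 20 kb from 21830000 to 21849999 HDAC1 and HDAC3 covered 0%, while HDAC4a list 1, HDAC6 list 2 and HDAC11 list 1 covered 31.0%, 34.4% and 35.5%. Their partners HDAC4a list 2, HDAC6 list 1 and HDAC11 list 2 also covered 0% of it, so no deacetylase held this stretch in both of its lists. To the right of the window HDAC1 list 1, both HDAC3 lists and HDAC6 list 2 had no peak until positions 22012521 to 22013193, where all 4 resumed within 672 bp of each other. The other lists resumed elsewhere. The next peak of HDAC1 list 2 began at 21923644, those of both HDAC4a lists and HDAC6 list 1 between 21906411 and 21907007, that of HDAC11 list 2 at 21918364 and that of HDAC11 list 1 at 22538576.

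**Figure D4:**
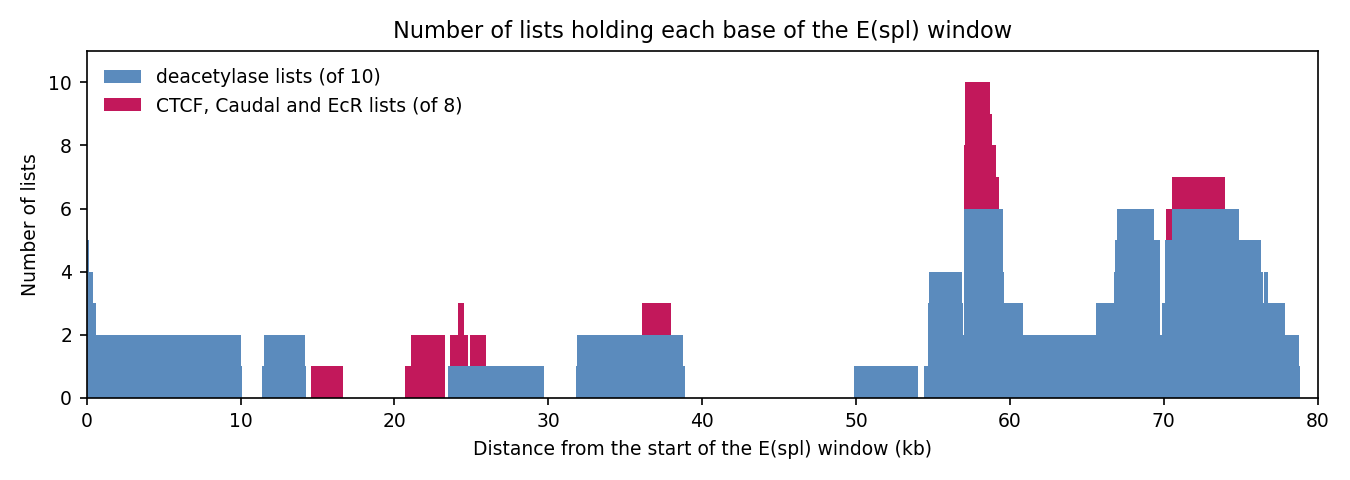
Number of lists holding each base of the E(spl) window. The horizontal axis gives the distance from the start of the window in kb and the height the number of lists, with the 10 deacetylase lists in blue and the 8 CTCF, Caudal and EcR lists stacked on top in magenta. The highest point, 10 lists, is the shared site of 1626 bp, and the place next in height holds 7 lists.

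The Caudal peaks of 0 to 4 h and of 4 to 8 h embryos shared no base in the window, and the adult list held a place of each. At 0 to 4 h there was 1 peak, at 21867021 to 21869285 on the shared site. At 4 to 8 h there were 3, at 21824581 to 21826668, 21830677 to 21833304 and 21880168 to 21883988, none of which overlapped the early peak. These 2 lists overlapped little over all arms as well, with a Jaccard index of 0.027. The adult list had an index of 0.24 with 0 to 4 h and 0.15 with 4 to 8 h in the window, against 0.096 and 0.021 over all arms. The L3 list, whose file header names EcR, had none. Adult females had 6 peaks, of which the widest 3 lay at 21831058 to 21833271, 21867017 to 21869116 and 21833579 to 21834794. The adult list held the place of the early peak, with 2096 bp in common, and that of the second peak of 4 to 8 h, with 2214 bp in common. The covered share was 2.83% at 0 to 4 h, 10.7% at 4 to 8 h, 0% in the list labelled Caudal L3 and 10.5% in adult females, or 0.52, 1.04, 0 and 3.09 times the arm. The share of tiles at 2 times was 16.1%, 11.8%, 24.7% and 13.2% in these lists, and in the adult list 23 of 348 tiles were covered as much as the window. At 0 to 4 h and 4 to 8 h, 162 and 153 of 348 tiles were covered as much. The median tile had 2.25% and 8.58% in these 2 lists, so the window was above it in both, also where it was below the mean of the arm. By number the peaks were 0.58, 0.71, 0 and 2.61 times the mean, where 15.2%, 8.33%, 36.2% and 15.5% of tiles reached 2 times. Of the Caudal lists, the adult one alone reached 2 times by either measure. With the window 20 kb wider on each side it was at 2.06 times by covered share and 1.74 times by number. By the labels, antibody and strain changed together with stage between the 0 to 4 h list and the others. The lists also differ in how they were made, with a median peak width of 235 bp in L3 larvae and 973 to 1864 bp at the other stages. Each stage was a single list, of 1 library at 4 to 8 h and in adults, so the differences between stages have no replicate check and their relation to antibody, strain and list type cannot be told apart.

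EcR had 1 region in the window. At 10 to 11 h it lay at 21834105 to 21834539, inside a peak of adult Caudal and inside the widest HDAC4a list 1 peak, and no other list reached it. Its score, the authors' own value of unstated scale, was 7.53, number 389 of 483 regions in a list whose scores ran from 7.41 to 10.2 with a median of 7.79. It was thus one of the lower regions of its list, and the nearest others lay 655560 bp to the left of the window and 480104 bp to its right. A single region of 435 bp amounted to 3.30 times the covered share of the arm, where 14.9% of tiles reached 2 times. By number it was 3.16 times the mean, where 21.8% of tiles reached 2 times. At 30 to 33 h there was no region between 21710038 and 22086702, in a list where 13.8% of tiles reached 2 times by covered share and 19.3% by number.

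The peaks of the window were shared with other lists about as often as those of the arm. A peak here overlapped a median of 5 other lists, against 4 over the 11405 peaks of 3R. HDAC11 list 1 had a median of 1 in the window, from 2 peaks, and 5 on 3R. Both CTCF lists had 9 in the window and 4 on 3R, and Caudal at 0 to 4 h had 9 and 3. Each of these values of 9 comes from 1 peak, at the same shared site. Merged across lists, the peaks formed 8 regions. The largest, from 21864441 to 21888817, held 12 lists, and the others held 1 to 6. The longest stretch with no peak in any list was 10973 bp, from 21848901 to 21859873.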

How the data were processed

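The authors deposited 1 list of bound regions per ChIP sample, with the numbered libraries of a sample pooled per the labels' titles. The coordinates, start and end of each region, are on BDGP release 5 per the submitters' processing notes. The sources used here name neither aligner nor peak caller. The 15 deposited lists with 3 columns hold no height, and 3 (Caudal L3 and the EcR lists) hold a score per region, cut from a density track per the file headers. It served to place the EcR region among those of its own list.

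Starts were shifted to 1-based positions. A peak belonged to the window when it overlapped it by 1 bp or more. Arm 3R, taken as 1 to 27895452, was divided into 348 whole tiles of the window's length, 1 of them the window. Covered shares were divided by that of 3R, and peak numbers by the mean per tile. A fold of 2 counted as called. The 10 deacetylase lists, labelled with title numbers 492 to 501, were tested by an exact permutation over pairings, at a threshold of 0.05. The measures were run on simulated lists of narrow peaks of a single width at random positions, and the pairing test on random bases. These lack the varied widths and uneven spread of the real lists, so they do not vouch for the values here. Python 3.11.15 with NumPy 2.4.6 was used. Alternatives were all arms as background, a window 20 kb wider or 10 kb narrower on each side, peak midpoints, the upper 50% of each list by score or, where there is none, by width, a fold of 1.5 and, for the pairing test, leaving out each list. Leaving out lists for the other measures, and leaving out the HDAC4a and HDAC6 lists together, was chosen after seeing the data.

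The text names every peak of lists with up to 5 peaks in the window and otherwise the widest 3. The window, genes and tests were chosen with earlier results of these data known. Nothing says that lists of a target came from separate collections, so p-values only place the labelled pairing among all pairings of these lists. Sequences, and genes of the Notch pathway outside the complex, were not analysed here, because no genome or annotation of release 5 was at hand.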

Additional observations from a re-analysis of the deposited data

How the results depend on the processing

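The number of lists covered at least 2 times as much as 3R was 8, and it was 5 with the window 20 kb wider on each side, 5 with it 10 kb narrower and 5 with peak number in place of covered share. It was 6 to 8 in the other settings, and 7 to 8 when single lists were left out. The lists lost at both other window sizes were HDAC1 list 1 (1.53 and 1.45 times) and the HDAC3 lists (1.78 and 1.38, 1.63 and 1.32). By number, HDAC6 list 2 (1.87 times) and adult Caudal (1.74 times) were lost with the wider window. The EcR region at 10 to 11 h is not in the upper 50% of its list, so both its measures became 0 there. The median over lists was 1.23 times the arm by covered share (0.95 to 1.31 across the planned settings) and 0.90 times by peak number (0.79 to 1.35). Leaving out single deacetylase or CTCF lists gave 1.04 to 1.42 and 0.71 to 1.10. Without the Caudal L3 list they were 1.42 and 1.10. The SD between single lists of a target was 1.93 times by covered share and 1.45 times by number. It exceeds the medians themselves, so it cannot show whether a median over lists moved.

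The higher overlap of lists of the same deacetylase (exact permutation p = 0.022), which came from HDAC1 and HDAC3 alone, kept its direction throughout. It passed the threshold with other window sizes (exact permutation p = 0.016 each) and the upper 50% of each list (p = 0.023). It did not with the share of overlapping peaks (exact permutation p = 0.52) or without the HDAC4a and HDAC6 lists (p = 0.067, the smallest possible). Leaving out 1 list gave an exact permutation p = 0.016 to 0.16, above the threshold for each HDAC1 and HDAC3 list. With 1 HDAC4a, HDAC6 or HDAC11 list left out, which leaves the same number of lists, it was 0.016 to 0.022 (exact permutation p). The lists of HDAC4a, HDAC6 and HDAC11 had an index of 0 with their partners. Only the HDAC1 and HDAC3 pairs thus raised the mean. Why the result depends on these lists was not tested further. No paired analysis was possible because replicate numbers mark no shared collection and the folds come from no test.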
